A study of Mus musculus with 9 samples.

Results

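The 10 genes described here make, convert or use arginine, creatine and the polyamines. They were chosen by gene symbol (Ass1, Asl, Arg2, Gatm, Oat, Agmat, Ddah1, Amd1, Sat1 and Sms), with earlier results of these data known, from the 21950 genes with mRNA values in the renal cortex of 3 groups of 3 mice. All mice were males of the C57BL/KsJ background, 15 weeks old, and carried the db mutation of the leptin receptor. The controls (Control) were nondiabetic littermates heterozygous for it (db/m), whereas the dbdb and dbR mice were homozygous (db/db) and diabetic. The dbR mice received rosiglitazone, which activates the receptor PPARγ, at 20 mg/kg/day by gavage for 8 weeks from the age of 7 weeks, and the dbdb mice received the vehicle. The db/db mouse lacks leptin signalling in the whole body, so that obesity and diabetes come together in this model and cannot be told apart here. Each mouse gave 1 library of RNA depleted of ribosomal RNA, and values are FPKM, the fragments of a transcript divided by its length and by the depth of its library, summed over the transcripts of a gene.

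The kidney is the main source of circulating arginine in the adult body. In the proximal tubule, argininosuccinate synthase (Ass1) and argininosuccinate lyase (Asl) turn citrulline into arginine, and glycine amidinotransferase (Gatm) uses arginine to form guanidinoacetate, the precursor of creatine. Arginase splits arginine into urea and ornithine, ornithine aminotransferase (Oat) passes ornithine toward glutamate and proline, and ornithine decarboxylase (Odc1) passes it into the polyamines putrescine, spermidine and spermine.

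In dbdb mice, the genes of arginine synthesis did not pass the test, while the mitochondrial arginase Arg2 and Oat were upregulated, 2.16-fold and 1.82-fold, and Sat1 and Ddah1 were downregulated to 0.765 and 0.795 of the control level. Sat1 encodes the enzyme that acetylates spermidine and spermine for breakdown and export, and Ddah1 the enzyme that degrades asymmetric dimethylarginine. After rosiglitazone no gene of the 10 differed from dbdb at an adjusted p under 0.05, where 0.743% of all genes did, and Oat and Arg2 were again above control in dbR. Among the other genes of these pathways, Odc1 was downregulated in dbdb to 0.289 of the control level, while 5 of the 8 listed genes of ornithine, proline and glutamate were upregulated and 1 was downregulated, where 13.1% and 13.4% of all genes were.

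The promoters of the 3 genes with the highest levels among those that changed are shown, because Oat moved opposite to Sat1 and Ddah1. Each sequence holds the 250 bases before the start of the gene in RefSeq (GRCm38.p6), written 5′ to 3′ on the strand of the gene. Capitals mark matches, on either strand, to TATAAA (the TATA box), to CCAAT (the CCAAT box), to GGGCGG (the GC box), to CACGTG (an E-box), to AGGTCA (a half-site of nuclear receptors) and to TGTTCT (a half-site of steroid receptors).
Oat (chr7:132576399-132576648, minus strand): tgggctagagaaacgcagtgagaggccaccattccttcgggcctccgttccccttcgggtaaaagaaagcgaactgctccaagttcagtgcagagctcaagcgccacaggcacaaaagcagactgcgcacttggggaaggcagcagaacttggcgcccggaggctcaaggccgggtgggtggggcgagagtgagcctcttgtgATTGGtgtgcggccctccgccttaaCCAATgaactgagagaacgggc
Sat1 (chrX:155216450-155216699, minus strand): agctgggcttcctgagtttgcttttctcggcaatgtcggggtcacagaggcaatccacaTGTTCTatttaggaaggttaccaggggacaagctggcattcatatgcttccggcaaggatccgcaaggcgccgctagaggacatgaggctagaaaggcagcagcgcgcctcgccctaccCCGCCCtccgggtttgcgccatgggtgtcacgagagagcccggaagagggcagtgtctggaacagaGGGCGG
Ddah1 (chr3:145758442-145758691, plus strand): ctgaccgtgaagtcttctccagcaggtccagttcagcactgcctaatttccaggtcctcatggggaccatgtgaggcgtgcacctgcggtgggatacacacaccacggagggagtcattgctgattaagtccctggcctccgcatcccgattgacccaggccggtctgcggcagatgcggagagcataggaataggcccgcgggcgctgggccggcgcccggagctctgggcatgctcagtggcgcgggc
The Oat sequence held 2 matches to CCAAT, the Sat1 sequence 2 matches to GGGCGG and 1 to TGTTCT, and the Ddah1 sequence none of the 6 motifs. The Ddah1 window lies at the start of the transcript ENSMUST00000029845, which was not called in any comparison. ENSMUST00000120310, the Ddah1 transcript that was called lower, starts 2073 bases downstream, and the bases before that start are not shown. RefSeq promoters were matched for 8 of the 10 genes. Of these 8, CCAAT was found in 3 (Gatm, Oat and Sms), GGGCGG in 4 (Ass1, Agmat, Amd1 and Sat1), CACGTG in 2 (Ass1 and Sms), AGGTCA in 2 (Gatm and Sms), TGTTCT in 1 (Sat1) and TATAAA in 0. In all 32851 RefSeq promoters of the same length, the shares were 33.8% for CCAAT, 32.7% for GGGCGG, 6.02% for CACGTG, 14.02% for AGGTCA, 16.1% for TGTTCT and 12.4% for TATAAA. These matches describe the letters of the windows and were not tested for binding.

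Differences were tested with limma on log2(FPKM + 0.1) over the 14537 genes whose mean FPKM reached 0.1, as that of all 10 genes did, and a gene was called at a Benjamini-Hochberg adjusted p under 0.05 over all genes tested. Fold changes are on this scale and understate the change of low genes. Each library stood for 1 mouse. The libraries held an estimated 26.3 to 32.1 M fragments, and genes encoded in the mitochondrion held 26.9% to 32.8% of the summed mRNA FPKM. Leptin receptor (Lepr) was at 1.05 to 1.23 FPKM in the controls and 0.304 to 0.652 FPKM in the 6 db/db libraries. The 7 markers of the S1 and S2 segments of the proximal tubule summed to between 2675 and 3360 FPKM in every library, while the defining markers of the adrenal cortex, Cyp11b1 and Cyp11a1, were listed at 0 in 9 and 8 of the 9 libraries, and Star, the third gene of that list, was at 0.597 to 0.943 FPKM in the controls, 1.099 to 1.37 in dbdb and 0.698 to 1.24 in dbR and was not called. In tissue RNA, fewer cells of a type and less RNA per cell cannot be told apart.

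In level per length, Ass1 was the most abundant of the 10 genes, with a mean of 1913 FPKM over the 9 libraries and 62.4% of their summed FPKM, above 99.9% of the genes tested. Gatm followed with 481 FPKM, and then Asl with 182, Oat with 167, Sat1 with 148 and Ddah1 with 131 FPKM. The ranges of neighbours in the last 4 overlapped over the libraries, so that their order is not fixed by these data. Amd1 (23.1 FPKM) and Sms (16.6 FPKM) were lower, and Arg2 (1.63 FPKM) and Agmat (0.814 FPKM) were the lowest, resting on an estimated 29 to 129 and 19 to 51 fragments per library. The highest library exceeded the lowest by 4.02 times for Arg2, 2.86 times for Oat and 2.82 times for Agmat, and by 1.32 to 1.67 times for the other 7 genes.

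**Figure D1:**
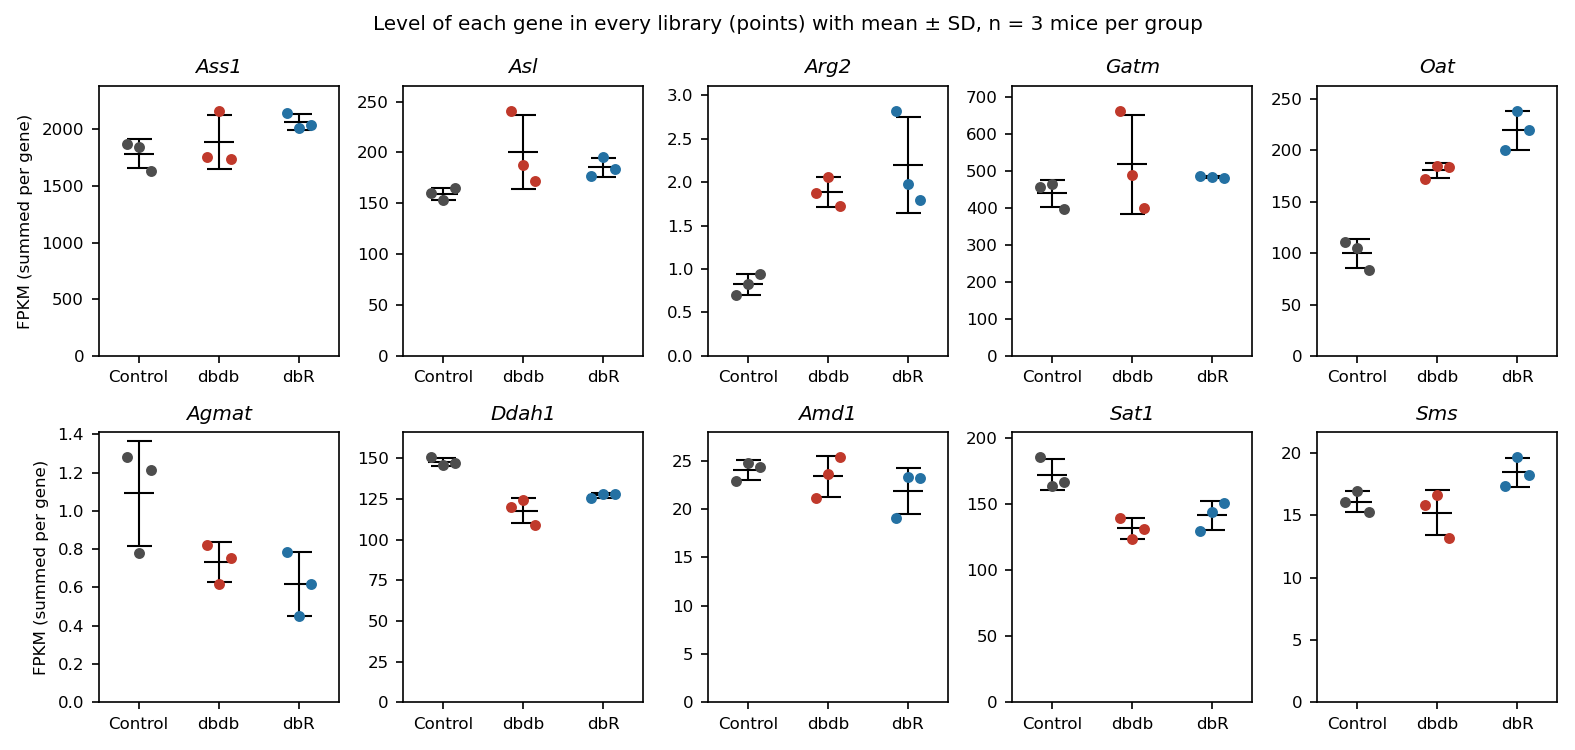
FPKM of each of the 10 genes in every library (points, 3 per group: Control, dbdb, dbR), with the mean of the group as a short line and its SD as whiskers. All y axes start at 0. Arg2 and Oat lie higher in all 6 db/db libraries than in any control, Ddah1 and Sat1 lie lower, and Gatm and Asl are spread widely in dbdb.

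In dbdb compared to control, 4 of the 10 genes passed the test, 2 higher and 2 lower, whereas 26.4% of all genes tested did. The share of all genes called higher was 13.1% and called lower 13.4%. Before adjustment 5 of the 10 had a p under 0.05, Asl being the fifth, against 38.8% of all genes. The ranges of the groups did not overlap for 5 of the 10 genes, against 42.4% of all genes tested. The median log2 fold change was 0.02 over the 10 genes and -0.003 over all genes tested. These counts did not set the 10 genes apart from the background, and the results therefore concern single genes.

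Arginine synthesis was read from Ass1 and Asl. Ass1, on chromosome 2 (chr2:31470207-31520672, GRCm38), was at 1868, 1848 and 1637 FPKM in the controls, 1761, 2167 and 1737 in dbdb and 2147, 2013 and 2040 in dbR. The control and dbdb ranges overlapped, and the 3 dbR libraries were above the controls. Its log2 fold change was 0.08 ± 0.11 (SE, n = 3 per group) in dbdb and 0.21 ± 0.11 in dbR compared to control, with limma adjusted p = 0.651 and 0.196. Asl (chr5:130011258-130029247), which releases arginine in the next step, was at 160, 153 and 165 FPKM in the controls, 241, 188 and 172 in dbdb and 177, 195 and 184 in dbR. All 6 db/db libraries were above the controls, with dbdb replicate 1 highest. Asl nevertheless missed the threshold in both groups, with a log2 fold change of 0.32 ± 0.11 in dbdb (limma adjusted p = 0.057) and 0.22 ± 0.11 in dbR (limma adjusted p = 0.177). It was called in dbdb in 4 of 21 alternative settings, 3 of which rescaled the libraries and 1 left out dbdb replicate 3 (log2 fold change 0.42). In dbR it was called in 4 of 21, 1 of which left out dbdb replicate 1 (limma adjusted p = 0.0383).

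The 6 Asl transcripts differed in share. ENSMUST00000161094 held 44.9% of the Asl FPKM, ENSMUST00000159619 33.5% and ENSMUST00000161640 14.4%, and none of the 5 that could be tested passed in any comparison. For the 1696-base Ass1 transcript, 46.9% of its 75-base windows were also found in Gm5424, and the FPKM of Ass1 therefore depends on how shared reads were divided.

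Arg2, the mitochondrial arginase and the isoform of the kidney, rose in both db/db groups. Arg2 (chr12:79130777-79156301) was at 0.702, 0.826 and 0.938 FPKM in the controls, 1.87, 2.06 and 1.72 in dbdb and 2.82, 1.98 and 1.79 in dbR. The lowest db/db library lay far above the highest control, and dbR replicate 1 stood above the other db/db libraries. Arg2 thus had a log2 fold change of 1.11 ± 0.18 in dbdb and 1.30 ± 0.18 in dbR compared to control (limma adjusted p = 0.00168 and 0.000761), and it was called in all 21 alternative settings in both comparisons. With a pseudocount of 1 the log2 fold change of Arg2 was 0.66 and 0.80, below that of Oat in both comparisons. Arg1, the cytosolic arginase of the liver, had 0 to 0.228 FPKM per library and did not reach the minimum for a test. An antisense gene (Gm48780) overlaps Arg2 by 997 bases and Vti1b by 285 bases on the opposite strand. The library kit kept the strand, but how strand entered the FPKM estimate is not given in the sources used here.

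Among the 11614 genes with a mean of at least 1 FPKM, the 5 whose log2(FPKM + 0.1) was most like that of Arg2 over the 9 libraries were Nckap5 (Pearson r = 0.980), Syce2 (0.973), Mapk3 (0.972), Zfp69 (0.967) and Magi2 (0.965). The 9 points share the group differences and the depth of each library, and the values are a description without a test. Nckap5 was at 1.82 to 2.23 FPKM in the controls and 2.86 to 3.90 FPKM in the db/db libraries. Mapk3, which encodes the kinase ERK1, was at 22.9 to 23.4 FPKM in the controls and 26.1 to 29.5 FPKM in the db/db libraries.

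Oat, the mitochondrial aminotransferase that makes glutamate semialdehyde from ornithine, had the clearest separation among the abundant genes. Oat (chr7:132557478-132576398, minus strand, promoter shown above) was at 111, 105 and 83.5 FPKM in the controls, 173, 185 and 184 in dbdb and 201, 239 and 220 in dbR. The 3 groups did not overlap, with the controls lowest and dbR highest. Oat rose, with a log2 fold change of 0.86 ± 0.10 in dbdb and 1.14 ± 0.10 in dbR compared to control (limma adjusted p = 0.000345 and 8.27e-05), and it was called in all 21 alternative settings in both comparisons. Its difference between dbR and dbdb, 0.28 ± 0.10 (limma adjusted p = 0.207), did not pass. Oat lies within the span of Fgfr2 on the same strand in the annotation, and none of its 75-base windows was shared with another transcript.

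Gatm carries out the first step of creatine synthesis. Gatm (chr2:122594467-122611303) was at 456, 465 and 398 FPKM in the controls, 664, 491 and 401 in dbdb and 488, 485 and 483 in dbR. The dbdb libraries were spread the widest, with dbdb replicate 1 the highest of all 9, and the dbR libraries lay within 483 to 488 FPKM. The log2 fold change was 0.21 ± 0.15 in dbdb (limma adjusted p = 0.341) and 0.15 ± 0.15 in dbR (limma adjusted p = 0.530). Gamt, which methylates guanidinoacetate to creatine, was at 16.03 to 21.96 FPKM in the controls, 12.8 to 17.5 in dbdb and 19.5 to 19.8 in dbR and did not pass in any comparison.

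Ddah1 and Agmat act on derivatives of arginine. Ddah1 (chr3:145758675-145894277) was at 151, 146 and 147 FPKM in the controls, 120, 124 and 109 in dbdb and 126, 128 and 128 in dbR. All db/db libraries were below the controls, and the dbR libraries lay between control and dbdb without overlap. Ddah1 fell, with a log2 fold change of -0.33 ± 0.06 in dbdb and -0.22 ± 0.06 in dbR compared to control (limma adjusted p = 0.0029 and 0.0229). In dbdb it was called in all 21 alternative settings, in dbR in 13 of 21. The 8 without a call were the 3 rescalings of the libraries and the fits without Control replicate 1 or 3 or without dbR replicate 1, 2 or 3, with log2 fold changes from -0.12 to -0.22. Between dbR and dbdb the log2 fold change was 0.11 ± 0.06 (limma adjusted p = 0.352).

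Ddah1 has 2 transcripts in the files, which start 2073 bases apart. ENSMUST00000120310, the one with the downstream start, was at 87.1, 88.7 and 82.3 FPKM in the controls, 64.4, 64.3 and 58.8 in dbdb and 65.2, 68.6 and 66.6 in dbR. Its db/db libraries were all below the controls. Its log2 fold change was -0.46 ± 0.05 in dbdb and -0.36 ± 0.05 in dbR compared to control (limma adjusted p = 0.00181 and 0.00563 over all transcripts), where 9.23% and 8.3% of the 31858 transcripts tested were called. Of the transcripts of the 10 genes, 4 were called in dbdb, 3 in dbR compared to control and 0 in dbR compared to dbdb, where 0.0126% of all transcripts were. ENSMUST00000029845, whose first 17 bases are the last of the promoter window shown above, was at 63.7, 57.5 and 64.9 FPKM in the controls, 55.8, 59.9 and 50.3 in dbdb and 60.5, 59.4 and 61.5 in dbR. The 3 groups overlapped, and its log2 fold change was -0.17 ± 0.07 in dbdb (limma adjusted p = 0.21) and -0.04 ± 0.07 in dbR (limma adjusted p = 0.839). The transcript with the downstream start held 58.1% of the Ddah1 FPKM in the controls, 53.1% in dbdb and 52.5% in dbR. The difference between the transcripts was not tested, and the division of reads between them was estimated by Cufflinks.

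**Figure D2:**
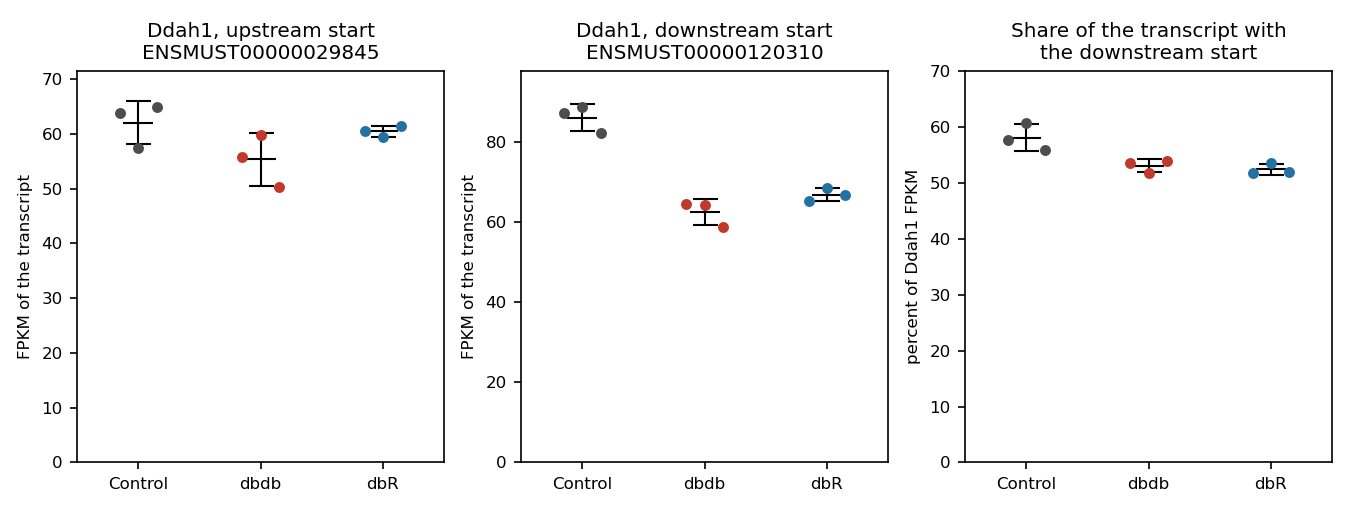
FPKM of the Ddah1 transcripts with the upstream and the downstream start, and the share of the downstream one in percent of the Ddah1 FPKM, in every library (points) with the mean and SD of 3 mice per group. The transcript with the downstream start lies at 82.3 to 88.7 FPKM in the controls and 58.8 to 68.6 FPKM in the db/db libraries, while the values of the upstream one overlap.

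Agmat encodes agmatinase, named for the hydrolysis of agmatine to putrescine and urea. Agmat (chr4:141746672-141759263) was at 1.28, 0.779 and 1.22 FPKM in the controls, 0.824, 0.618 and 0.755 in dbdb and 0.784, 0.453 and 0.619 in dbR. Control replicate 2 lay within the range of both db/db groups. The log2 fold change was -0.50 ± 0.23 in dbdb (limma adjusted p = 0.14) and -0.73 ± 0.23 in dbR (limma adjusted p = 0.0444). The call in dbR was made in 7 of 20 alternative settings, and it was lost without Control replicate 1 or 3, dbR replicate 2 or 3, or any 1 dbdb library (log2 fold change -0.55 to -0.74).

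Of the 3 polyamine genes among the 10, Sat1 was the most abundant and the one that was called in dbdb. Sat1 (chrX:155213132-155216449, minus strand, promoter shown above) was at 185, 164 and 167 FPKM in the controls, 140, 124 and 131 in dbdb and 130, 144 and 151 in dbR. Each db/db library was below each control, and the dbdb and dbR ranges overlapped. Sat1 fell, with a log2 fold change of -0.39 ± 0.08 in dbdb and -0.28 ± 0.08 in dbR compared to control (limma adjusted p = 0.00549 and 0.0247). In dbdb it was called in all 21 alternative settings. In dbR it was called in 17 of 21, and was lost without Control replicate 1 or dbR replicate 1 or 2 and when genes encoded in the mitochondrion were left out of the scaling (log2 fold change -0.19 to -0.30). The transcript ENSMUST00000026318 held 98.3% of the Sat1 FPKM and was called in dbdb (log2 fold change -0.38 ± 0.08, limma adjusted p = 0.0179 over all transcripts).

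Amd1 and Sms belong to the synthesis of spermidine and spermine. Amd1 (chr10:40287458-40302186), which makes the decarboxylated S-adenosylmethionine that donates the aminopropyl groups, was at 22.9, 24.8 and 24.4 FPKM in the controls, 21.1, 23.7 and 25.4 in dbdb and 19.1, 23.3 and 23.2 in dbR. The 3 groups overlapped, and the log2 fold change was -0.04 ± 0.09 in dbdb and -0.14 ± 0.09 in dbR compared to control (limma adjusted p = 0.775 and 0.309). Of its 75-base windows, 81.9% were shared with Amd2 or with Amd pseudogenes, so that the value may hold reads of these copies. Spermine synthase, Sms (chrX:157443855-157492287), was at 16.1, 16.9 and 15.3 FPKM in the controls, 15.8, 16.6 and 13.2 in dbdb and 17.4, 19.7 and 18.3 in dbR. All 3 dbR libraries were above the other 6. The log2 fold change was 0.28 ± 0.09 in dbR compared to dbdb and 0.19 ± 0.09 compared to control (limma adjusted p = 0.161 and 0.152), and neither passed. Of the Sms windows, 28.2% were shared with Sms-ps and other copies.

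In dbR compared to dbdb, 0 of the 10 genes passed the limma test at an adjusted p under 0.05, where 0.743% of all genes did (108 of 14537), 0.564% being higher in dbR. Before adjustment 2 of the 10, Oat and Sms, had a p under 0.05, against 17.5% of all genes tested. The ranges did not overlap for 3 of the 10, Ddah1, Oat and Sms, all higher in dbR, and for 22.7% of all genes. None was called in any alternative setting. In dbR compared to control, 5 of the 10 genes passed, 2 higher and 3 lower, where 24.1% of all genes did. Before adjustment the count was also 5, against 36.8% of all genes. The ranges did not overlap for 8 of the 10, against 41.9% of all genes. The median log2 fold change over the 10 genes was 0.17, and -0.001 over all genes tested. The 2 comparisons with control use the same 3 control libraries, and their values are given side by side for that reason.

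**Figure D3:**
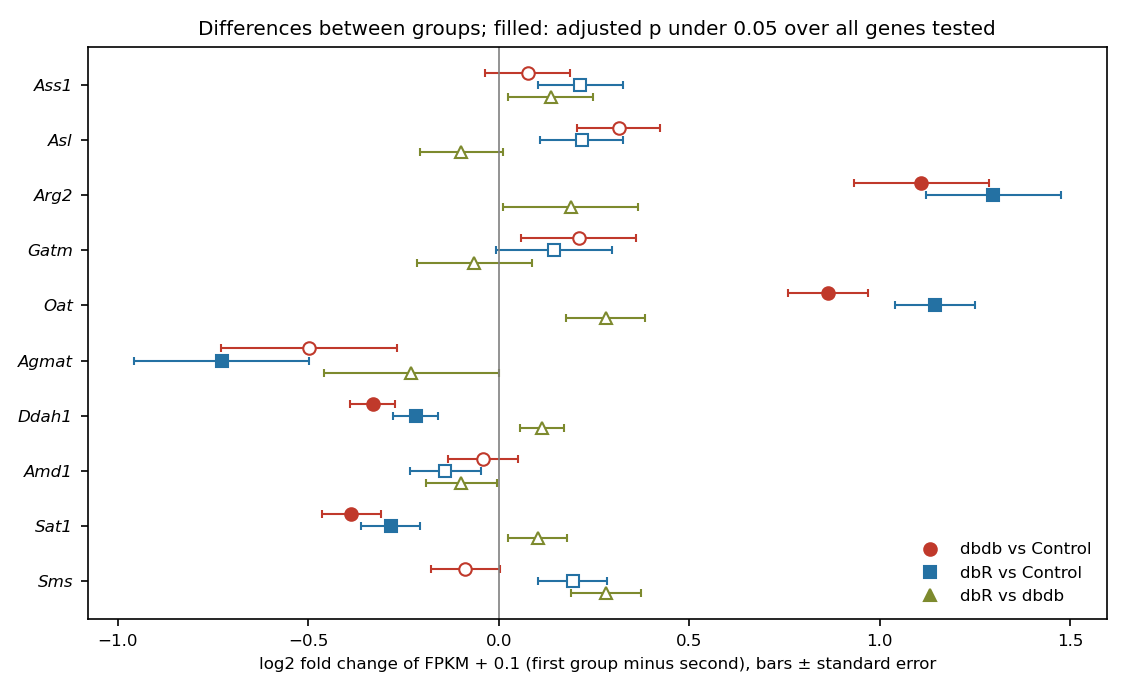
Log2 fold change of FPKM + 0.1 with its standard error for each of the 10 genes, in dbdb vs Control (circles), dbR vs Control (squares) and dbR vs dbdb (triangles). Filled symbols passed an adjusted p under 0.05 in limma. Arg2 and Oat lie farthest to the right compared to control, at 1.11 and 0.86 in dbdb, and no triangle is filled.

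The share of higher and lower calls depended on the scaling. When genes encoded in the mitochondrion were left out and the libraries were scaled to the same sum, the median log2 fold change of all genes moved to 0.15 in dbdb and 0.09 in dbR compared to control, and 78.3% of the genes called in dbdb were higher, against 49.5% with FPKM as deposited. Under this scaling 5 of the 10 genes were called in dbdb, 3 higher (Arg2, Oat and Asl) and 2 lower. In dbR 4 were called, all higher (Arg2, Oat, Asl and Sms), where FPKM as deposited gave 2 higher and 3 lower. Of all genes called in dbR, 70.5% were higher under this scaling, against 51.1% with FPKM as deposited. Of those called in dbR compared to dbdb, 48.6% were higher under it (52 of 107), against 75.9% (82 of 108). The falls of Sat1 and Ddah1 in dbdb were kept under it, with log2 fold changes of -0.23 and -0.17 (limma adjusted p = 0.0266 and 0.0437), which are -0.38 and -0.32 relative to the median of all genes. Amd1 and Sms in dbdb changed sign under it.

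A ratio of 2 genes within a library does not depend on the scaling of the library. The Arg2 level per 1000 FPKM of Ass1 was 0.465 ± 0.0999 (SD, n = 3) in the controls, 1.001 ± 0.0554 in dbdb and 1.06 ± 0.228 in dbR. The ratio of Odc1 to Sat1 was 2.09 ± 0.99 in the controls, 0.740 ± 0.094 in dbdb and 0.918 ± 0.040 in dbR. The Gatm to Gamt ratio was 23.7 ± 5.5 in the controls, 32.8 ± 4.7 in dbdb and 24.7 ± 0.13 in dbR. With 3 against 3 libraries the two-sided exact permutation test cannot go below p = 0.1, a value reached by Arg2 to Ass1, Odc1 to Sat1 and, in dbR, Sat1 to Sms compared to control, and by Odc1 to Sat1 and Gatm to Gamt in dbR compared to dbdb. Over the 15 ratio tests, the smallest adjusted p of the exact permutation test was 0.214. Sat1 to Sms was 10.7 ± 0.95 in the controls, 8.73 ± 1.2 in dbdb and 7.67 ± 0.51 in dbR, and Sat1 to Amd1 was 7.18 ± 0.80, 5.67 ± 0.82 and 6.48 ± 0.31.

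Beside the 10 genes, 54 other genes of these pathways were listed by their known roles, and 47 of them were tested. In dbdb compared to control 18 of the 47 were called, 13 higher and 5 lower, with a median log2 fold change of 0.20 over the list and -0.003 over all genes, of which 26.4% were called. The comparison of dbR to control called 16, 12 higher and 4 lower, with a median of 0.11, where 24.1% of all genes were called. When genes encoded in the mitochondrion were left out of the scaling, 24 were called in dbdb, 20 of them higher, and 18 in dbR, 15 of them higher. Between dbR and dbdb 0 were called by limma, 12 had a p under 0.05 before adjustment (17.5% of all genes did), and Glud1 alone was called when dbdb replicate 3 was left out.

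Of the 8 genes of ornithine, proline and glutamate, 6 were called in dbdb, 5 of them higher. The counts of the short lists, here and below, stand against the same 26.4% of all genes in dbdb and 24.1% in dbR, and the lists were not tested against each other. Glud1, the glutamate dehydrogenase that releases ammonia from glutamate, was at 150 to 172 FPKM in the controls, 269 to 323 in dbdb and 215 to 242 in dbR, and the 3 groups did not overlap. Its log2 fold change was 0.88 ± 0.09 in dbdb and 0.51 ± 0.09 in dbR compared to control (limma adjusted p = 0.000123 and 0.00264), and -0.37 ± 0.09 in dbR compared to dbdb (limma adjusted p = 0.0746). Glul, the glutamine synthetase, rose by 0.68 ± 0.09 in dbdb and 0.55 ± 0.09 in dbR on the log2 scale. Prodh and Aldh4a1, the enzymes that oxidise proline to glutamate, rose by 0.53 ± 0.08 and 0.33 ± 0.06 in dbdb, and Aldh4a1 was at 0.18 ± 0.06 in dbR (limma adjusted p = 0.0593). Pycrl, a reductase that makes proline, fell by 0.28 on the log2 scale in dbdb, a call made in 9 of 21 alternative settings and lost without Control replicate 1 or 3, dbdb replicate 1 or 2 or dbR replicate 2. The call was also lost under the 3 rescalings of the libraries and in other settings. When mitochondrially encoded genes were left out, its log2 fold change was -0.12 (limma adjusted p = 0.271).

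Of the creatine genes, 3 of the 4 tested were called in dbdb, all higher. The mitochondrial creatine kinase Ckmt1 was at 14.4 to 16.0 FPKM in the controls, 26.5 to 31.5 in dbdb and 28.7 to 30.02 in dbR. All db/db libraries were above the controls, and the log2 fold change was 0.92 ± 0.07 in dbdb and 0.97 ± 0.07 in dbR compared to control (limma adjusted p = 3.69e-05 and 3.64e-05). The cytosolic creatine kinase Ckb rose by 0.69 ± 0.12 in dbdb and was at 0.29 ± 0.12 in dbR (limma adjusted p = 0.112). The creatine transporter Slc6a8 rose by 0.52 ± 0.06 in dbdb and by 0.32 ± 0.06 in dbR. The muscle creatine kinases Ckm and Ckmt2 stayed under the minimum for a test.

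Of the other arginine genes, Cps1 and Otc, the enzymes of the liver that make citrulline in the urea cycle, were listed at 0 in all 9 libraries. Ddah2, the second dimethylarginine hydrolase, was at 4.70 to 5.89 FPKM in the controls, 6.77 to 8.93 in dbdb and 6.83 to 9.56 in dbR. It rose by 0.63 ± 0.15 in dbdb and 0.65 ± 0.15 in dbR on the log2 scale (limma adjusted p = 0.0118 and 0.0108), opposite to Ddah1, and remained called in all 21 alternative settings. Agxt2, which also acts on dimethylarginines, rose by 0.35 ± 0.08 in dbR (limma adjusted p = 0.0106) and was at 0.20 ± 0.08 in dbdb (limma adjusted p = 0.0931). The nitric oxide synthases Nos1 and Nos2, which use arginine, were low, at 0.177 to 0.409 and 0.166 to 0.265 FPKM in the controls. Nos2 fell in dbdb by 0.98 on the log2 scale (limma adjusted p = 0.0261), a call lost without Control replicate 2 or 3 or dbdb replicate 2 or 3, and Nos1 rose in dbR by 0.93 ± 0.29 (limma adjusted p = 0.0449), a call made in 8 of 20 alternative settings and lost without Control replicate 1 or 3, dbdb replicate 1 or 2 or dbR replicate 1 or 2.

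In polyamine synthesis and its control, 1 of 12 genes was called in dbdb. Odc1 (chr12:17544794-17551505), the first enzyme of the route, was at 301, 233 and 536 FPKM in the controls, 102, 104 and 85.4 in dbdb and 119, 138 and 132 in dbR. The 3 groups did not overlap, with the controls highest and Control replicate 3 far above the other controls. The log2 fold change was -1.79 ± 0.24 in dbdb and -1.37 ± 0.24 in dbR compared to control (limma adjusted p = 0.000635 and 0.00299), and it was called in all 21 alternative settings in both. Between dbR and dbdb it was 0.42 ± 0.24 (limma adjusted p = 0.401). The other 11 genes of the list were not called in any of the 3 comparisons. Among them, spermidine synthase, Srm, was at 9.84 to 11.2 FPKM in the controls, 9.72 to 10.2 in dbdb and 8.95 to 9.35 in dbR, and Amd2, the near-identical copy of Amd1, was at 1.80 to 2.21, 2.20 to 2.64 and 1.62 to 2.04 FPKM. Of the Odc1 windows, 30.5% were shared with pseudogenes.

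In polyamine breakdown and transport, 2 of 7 genes tested were called in dbdb. Atp13a3, a transporter of polyamines, was at 40.1 to 42.1 FPKM in the controls, 29.6 to 32.6 in dbdb and 29.5 to 30.2 in dbR, and fell by 0.43 and 0.46 on the log2 scale (limma adjusted p = 0.000513 and 0.000378). Paox, the oxidase of acetylated polyamines, rose by 0.42 ± 0.13 in dbdb (limma adjusted p = 0.0416), a call made in 9 of 21 alternative settings and lost without any 1 dbdb or dbR library or without Control replicate 2 or 3. Sat2, the paralogue of Sat1, was at 10.8 to 15.1 FPKM in the controls and 8.18 to 13.2 FPKM in dbdb and was not called. Slc18b1, a vesicular polyamine transporter, fell by 0.35 in dbR on the log2 scale (limma adjusted p = 0.0174), a call lost without Control replicate 1 or dbR replicate 2, and also when mitochondrially encoded genes were left out of the scaling (log2 fold change -0.26).

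Of the 9 carriers of cationic amino acids and ornithine, 4 were called in dbdb and 4 in dbR compared to control, 3 of them higher each time. Slc3a2, the heavy chain of several amino acid exchangers, rose by 0.67 ± 0.10 in dbdb and 0.37 ± 0.10 in dbR, the latter a call lost without Control replicate 3 or dbR replicate 1 or 2. The arginine transporter Slc7a1 rose by 0.65 ± 0.15 and 0.64 ± 0.15. Its call in dbR was lost when each gene was read from the transcript of the highest mean FPKM alone (log2 fold change 0.30). The mitochondrial carrier of basic amino acids Slc25a29 rose by 0.72 ± 0.18 and 0.79 ± 0.18, with the call in dbdb lost without Control replicate 3 or dbdb replicate 1. Slc3a1, the luminal partner of Slc7a9 in cystine and dibasic amino acid uptake, was at 278 to 302 FPKM in the controls, 214 to 228 in dbdb and 228 to 243 in dbR, and fell by 0.39 and 0.30 on the log2 scale.

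**Figure D4:**
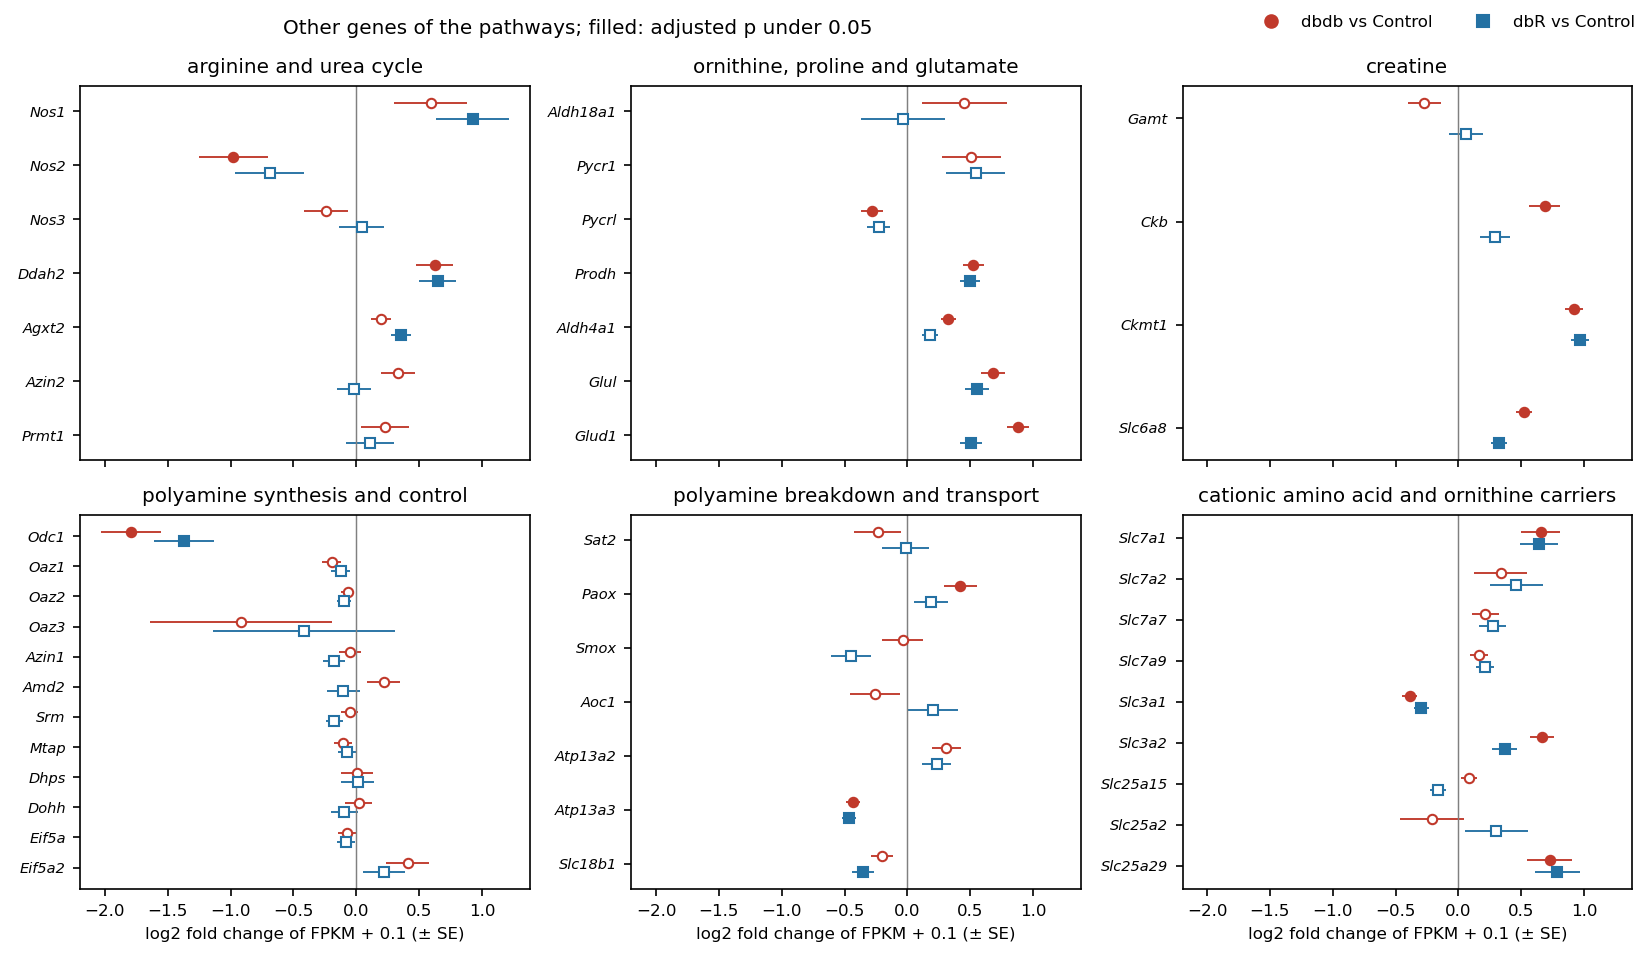
Log2 fold change of FPKM + 0.1 (± SE) of the tested pathway genes beside the 10, in 6 lists by role, for dbdb vs Control (circles) and dbR vs Control (squares). Filled symbols passed an adjusted p under 0.05 in limma. Odc1 stands at -1.79 in dbdb within a polyamine list whose other members are not called, while Glud1, Glul and Prodh lie to the right in both comparisons.

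Markers of segments and of other cell types moved between the same groups. Odc1, listed here with polyamine synthesis, is a classical androgen-responsive gene of the mouse kidney. A separate list held 6 androgen-responsive genes of the proximal tubule (Kap, Slco1a1, Cyp4b1, Gusb, Acsm3 and Cyp2j13). All 6 fell in dbdb and in dbR compared to control, with a median log2 fold change of -2.36 and -2.03. The largest fall in dbdb was that of Slco1a1 (-5.49) and the smallest that of Gusb (-0.49). None of the 6 was called in dbR compared to dbdb, where 0.743% of all genes were. Without overlap, Kap and Cyp4b1 were higher in dbR and Acsm3 was lower, against 22.7% of all genes in either direction. Of the other lists, 5 markers were called higher in dbR. They were Slc7a13 of the S3 segment, Atp6v1g3 of the collecting duct, Emcn and Kdr of the endothelium and Pdgfrb of fibroblasts. Among the controls, Control replicate 3 had the highest level of all 6, of Odc1, Arg2 and Asl, and the lowest level of Oat, Ass1, Gatm and Sms. Without Control replicate 3, the log2 fold change of Oat was 0.74 in dbdb and 1.02 in dbR compared to control, and both were called. Of the 6 markers of the S3 segment, 4 fell in dbdb, and their summed level was 734 to 1025 FPKM in the controls, 160 to 183 in dbdb and 209 to 271 in dbR. The same list held Slc5a1, which was not called in dbdb and rose in dbR compared to control (means of 19.4 FPKM in the controls, 20.8 in dbdb and 26.3 in dbR), and Slc7a12, which was not called in either (20.5, 19.7 and 26.3 FPKM). The summed level of the 7 S1 and S2 markers, in which Slc34a1 was the highest, overlapped among the 3 groups, although 3 of the 7 were called in dbdb, Slc5a2 and Slc5a12 higher and Slc22a6 lower, while that of the collecting duct was 115 to 134 FPKM in the controls, 174 to 264 in dbdb and 189 to 205 in dbR, with 6 of 7 markers higher in both. The 6 markers of the thick limb and distal tubule summed to 538 to 639 FPKM in the controls, 754 to 1056 in dbdb and 809 to 896 in dbR, and 3 of them rose in dbdb and 5 in dbR. The part of these differences in the values of the 10 genes and of Odc1 was not tested, and androgen action was not measured.

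Other cell types were at lower levels. The endothelial markers summed to 104 to 117 FPKM in the controls, 79.1 to 86.2 in dbdb and 110 to 128 in dbR, with 4 of 5 lower in dbdb. The 7 markers of macrophages and lymphocytes summed to 41.0 to 48.6 FPKM in the controls, 19.99 to 34.99 in dbdb and 28.3 to 37.5 in dbR, with 4 lower in dbdb and 1 in dbR. The adipocyte markers summed to at most 0.756 FPKM in any library. All 6 db/db libraries, in which Arg2 was higher, had a lower sum of the macrophage and lymphocyte markers than any control, and its part in the Arg2 values was not tested.

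**Figure D5:**
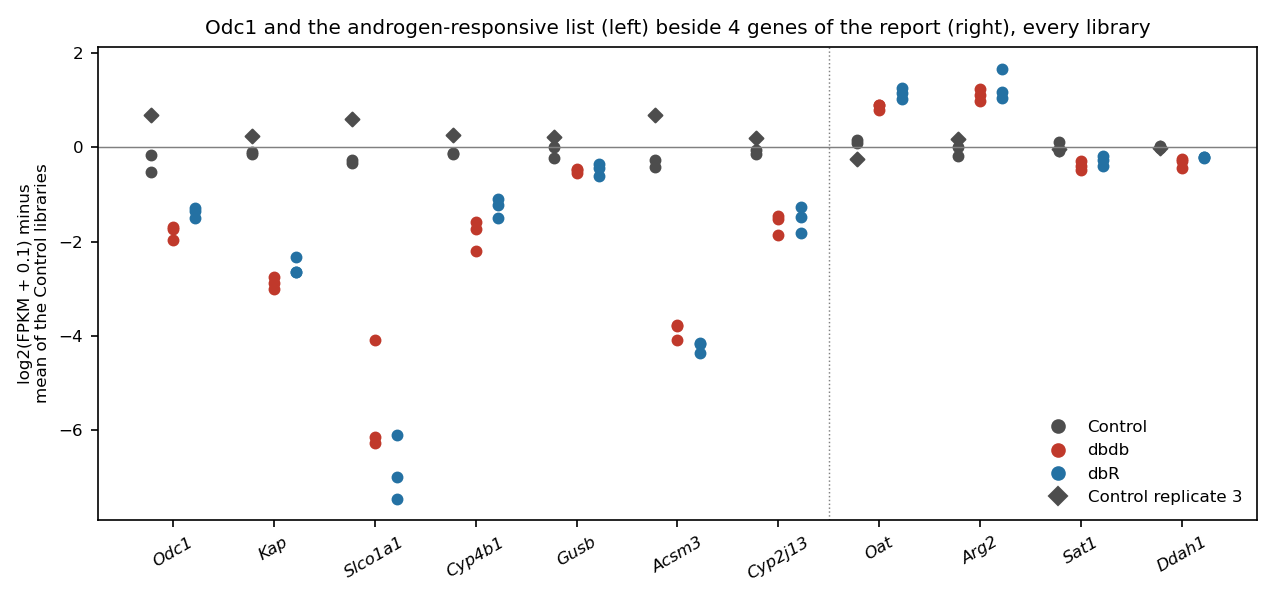
Log2(FPKM + 0.1) minus the mean of the 3 control libraries for Odc1 and the 6 androgen-responsive genes (left) and for Oat, Arg2, Sat1 and Ddah1 (right), in every library. Diamonds mark Control replicate 3, which is highest among the controls for the 7 genes on the left and Arg2, and lowest for Oat.

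Long noncoding RNAs with values within 100 kb of the 10 genes were few. A noncoding transcript of Spata5l1, 19343 bases from Gatm, was at 2.83 to 3.57 FPKM in the controls, 2.63 to 2.70 in dbdb and 1.80 to 2.11 in dbR. The 3 groups did not overlap, and the log2 fold change was -0.64 ± 0.13 in dbR compared to control (limma adjusted p = 0.0179 over all transcripts) and -0.24 ± 0.13 in dbdb (limma adjusted p = 0.291). Gm42986, 62294 bases from Asl, and 4930417H01Rik, 92931 bases from Gatm, did not pass in any comparison.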

How the data were processed

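RNA of the renal cortex of 9 mice (Control, dbdb and dbR, 3 each) was analysed. According to the submitters' processing notes, reads were aligned with TopHat2 2.0.9 to GRCm38.p2 and quantified with Cufflinks 2.1.1. The authors deposited FPKM per transcript for mRNAs and lncRNAs, so that raw counts are not part of these values. Read depth was estimated from the steps between low FPKM values.

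FPKM were summed per gene. limma 3.58.1 (R 4.3.3, with a variance trend) was fitted to log2(FPKM + 0.1) of the 14537 genes whose mean FPKM reached 0.1, with 9 libraries in 1 model and Benjamini-Hochberg adjustment over all genes (two-sided, called under 0.05). Transcripts (31858) were fitted likewise. The fit was tested on simulated data. Ratios were tested by exact permutation. Other pseudocounts, filters, scalings, fits and omitted libraries were tried, and lncRNA genes in the same fit were added after seeing the data. The 10 genes and all lists were chosen with earlier results of these data known. Named were all 10 genes, pathway genes called in any comparison, their direct partners, and the 5 genes most like the one with the largest change. Of the tested pathway genes, 1 is counted in the lists but not reported here by name or drawn. Lists of podocyte, fibroblast, thick limb and distal tubule, and liver markers were also tabulated. Compared to control, dbdb had 2 podocyte genes higher, 1 fibroblast gene lower, 3 thick limb and distal tubule genes higher, and 1 liver gene higher and 1 lower. In dbR these were 1 higher, 1 higher, 5 higher, and 1 higher and 1 lower. Same-numbered libraries did not deviate together (correlations of -0.17 to 0.06 over 9 pairs), and no pairing was used.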

Additional observations from a re-analysis of the deposited data

How the results depend on the processing

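The 4 genes called in dbdb compared to control (Arg2, Oat, Sat1, Ddah1) were called in all 21 alternatives, and their count lay between 4 and 5. In dbR compared to control, 5 of the 10 genes were called, 3 with scaling to the 75th percentile, and 2 to 5 when 1 library was left out. These were 2 without Control replicate 1 or dbR replicate 2 and 3 without Control replicate 3 or dbR replicate 1 or 3. Quantile normalization called 5 transcripts of the 10 genes there, against 3. In dbR compared to dbdb, 0 of the 10 genes were called throughout, and the count over all genes moved from 108 to 31 with no filter, 166 with a mean FPKM of at least 1, 224 with scaling to the 75th percentile, 234 with quantile normalization, 36 with only the 6 libraries compared, 18 with no variance trend, 49 with the transcript of the highest mean FPKM and 64 with lncRNA genes in the same fit. It was 2 to 141 when 1 library was left out, 2 without dbR replicate 2 and 10 without dbR replicate 3. The cause was not tested. The replicate numbers only name the mice. With the replicate number as a block, 23 genes were called in dbR compared to dbdb, 3345 in dbdb and 3030 in dbR compared to control, and of the 10 genes 0, 4 and 5 in the same order, as without the block. Of the 47 pathway genes 0, 17 and 17 were called, against 0, 18 and 16, and Nos2 in dbdb lost its call. Pathway genes called in dbR compared to dbdb were 0 to 1 when 1 library was left out.

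Changes of sign were seen only in values that were not called. In dbdb compared to control, the log2 fold change of Ass1 was -0.0264 without dbdb replicate 2 (-0.0264 to 0.133 with 1 library left out). That of Amd1 was 0.00239 with quantile normalization, 0.116 when mitochondrially encoded genes were left out and 0.0290 without dbdb replicate 1 (-0.103 to 0.0290). That of Sms was 0.0696 when mitochondrially encoded genes were left out and 0.0107 without dbdb replicate 3 (-0.155 to 0.0107). In dbR compared to dbdb, Ass1 was at -0.0257 with quantile normalization. Without dbdb replicate 1, Asl was at 0.0435 (-0.200 to 0.0435) and Gatm at 0.130 (-0.234 to 0.130). The log2 ratio of Arg2 to Ass1 was -0.107 without dbR replicate 1 (-0.107 to 0.184), and that of Gatm to Gamt in dbR compared to control -0.0971 without Control replicate 3 (-0.0971 to 0.243). The cause was not tested. Agmat had no value with a mean FPKM of at least 1. Arg2 and Agmat rest on few fragments, which limits what their differences can show.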
